A study of Drosophila melanogaster with 2 samples.

Results

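The subject is 9 genes that carry growth signals from insulin and from the kinase TOR to protein synthesis in Drosophila melanogaster: InR, chico, Akt, foxo, Tor, S6k, Thor, eIF4E1 and Lk6. They were looked up by symbol in the Ensembl annotation of the genome build dm6, in which Tor stands as mTor, and all 9 were found among its 13945 protein-coding genes on the chromosome arms. What was measured at them is the binding of Sage, a factor of the basic helix-loop-helix (bHLH) class studied chiefly in the salivary gland. Chromatin immunoprecipitation with sequencing (ChIP-seq) used an antibody against GFP on sonicated chromatin of whole wandering larvae of the third instar, sexes pooled, from a stable transgenic line that makes Sage with GFP at its C-terminus. The larvae's age is given as unknown, and the labels do not name the promoter that drives the fusion. The 2 samples are numbered as biological replicates 3 and 4 of a single group, so no condition was compared with another and no test was run. A whole larva mixes all tissues: no peak can be given to a tissue, and strong binding in a few cells cannot be told apart from weak binding in many. Peak lists measure binding and not expression, so no marker gene could check the labelled stage or tissue.

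Each replicate came with a list of about 30000 regions. The pooled replicates came with another, which the submitters label as peaks and background. A last list holds 3312 regions, kept by the submitters' threshold for the irreproducible discovery rate (IDR). The IDR rates how well the ranks of regions in replicates match. Those 3312 were exactly the strongest regions of the pooled list, here called IDR peaks, and 3292 of them lay on chromosome arms. The list thus equals a cut by pooled signal. A single IDR peak need not rank alike in both replicates, or be listed in both. A region's signal is the value the authors' peak caller gave it. Its scale is not stated and may differ between lists, so signals were ranked only within 1 list, where rank 1 is the strongest region. Read depth is unknown, and each signal is a single value with no error of its own. A region was given to a gene when its summit, the highest point, lay in the gene or within 2 kb of it, and its place was measured to the nearest transcription start site (TSS) of any isoform of that gene. By this rule the 9 genes held 16 of the 3312 IDR peaks, 89 of 30000 pooled regions, 98 of 29999 regions of replicate 3 and 89 of 30000 regions of replicate 4.

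Insulin-like peptides bind the insulin receptor, InR, which acts through its substrate Chico and a lipid kinase to activate the kinase Akt. Akt phosphorylates the forkhead factor FoxO and so keeps it out of the nucleus; nuclear FoxO switches on, among other genes, InR itself and Thor. The kinase TOR, which also senses amino acids, phosphorylates S6k, a kinase that promotes translation, and Thor, the fly 4E-BP. Unphosphorylated Thor holds eIF4E1, the protein that binds the cap of messenger RNA, and Lk6 is the kinase that phosphorylates eIF4E1. In the larva the network sets the growth of the body and of its endoreplicating tissues, the fat body and salivary gland among them.

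The sequences below show 7 of the 16 IDR peaks: the strongest one, both at Akt, the peaks just upstream of the outermost TSSs of foxo and InR, and the 2 on whose rank the replicates differed most. Each is the 101 bp centred on the summit, read 5′ to 3′ on the strand of the gene from the RefSeq Release 6 genome, the sequence of dm6. Capitals mark E-boxes (CANNTG), the sites that bHLH proteins as a class bind.
Lk6 peak 962 bp upstream of RB, chr3R:11760991-11761091, minus strand: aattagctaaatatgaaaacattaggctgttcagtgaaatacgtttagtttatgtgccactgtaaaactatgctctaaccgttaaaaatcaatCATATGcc
Akt peak 1389 bp upstream of RB, chr3R:16097789-16097889, plus strand: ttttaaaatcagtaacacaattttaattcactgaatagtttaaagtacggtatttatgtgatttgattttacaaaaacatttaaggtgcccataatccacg
Akt peak 688 bp upstream of RD, chr3R:16100022-16100122, plus strand: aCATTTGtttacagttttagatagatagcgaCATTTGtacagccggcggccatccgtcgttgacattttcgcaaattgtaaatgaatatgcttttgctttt
foxo peak 216 bp upstream of RH, chr3R:14056679-14056779, plus strand: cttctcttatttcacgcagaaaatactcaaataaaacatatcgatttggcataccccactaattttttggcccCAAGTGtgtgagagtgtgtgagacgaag
foxo peak 3686 bp downstream of RG, chr3R:14061555-14061655, plus strand: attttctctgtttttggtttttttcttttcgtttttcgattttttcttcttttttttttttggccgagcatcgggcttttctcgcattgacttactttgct
InR peak 67 bp upstream of RB, chr3R:21619338-21619438, minus strand: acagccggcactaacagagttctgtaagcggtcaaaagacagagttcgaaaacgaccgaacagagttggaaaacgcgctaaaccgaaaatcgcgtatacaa
InR peak 13317 bp upstream of RC, chr3R:21605388-21605488, minus strand: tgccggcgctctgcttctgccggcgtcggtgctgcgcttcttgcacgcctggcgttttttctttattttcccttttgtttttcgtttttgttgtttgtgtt
The strongest peak carried a CATATG box near the right edge of its window, and the second Akt window carried CATTTG at 2 places. The foxo promoter window held CAAGTG, and the other 4 windows shown held no E-box. The last foxo sequence and the last InR sequence are rich in C and T on the gene's strand, with 78.2% and 73.3% of their bases pyrimidines.

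Sage-GFP peaks were found at the receptor InR (7 peaks), the transcription factor foxo (3), the eIF4E kinase Lk6 (3), the kinase Akt (2) and the cap-binding protein eIF4E1 (1). The substrate chico, the kinases Tor and S6k, and Thor had none. Thus 5 of the 9 genes (55.6%) had an IDR summit in the gene or within 2 kb, against 22.9% of all 13945 protein-coding genes. With 3 or more summits there were 3 of the 9 genes, against 2.73% of all genes. These 3 genes, InR, foxo and Lk6, had windows of 53.1, 35 and 17.5 kb, while 10985 of the 13945 genes had windows under 10 kb. The 2.73% is thus over mostly shorter windows. Of genes with windows of 53 kb after rounding, 14 had no summit, 1 had 1, 2 had 3, 1 had 4 and 1, InR, had 7. At 35 kb, 10 had none, 6 had 1, 2 had 2, 4 had 3, foxo among them, and 1 had 5. At 18 kb, 56 had none, 27 had 1, 10 had 2, 7 had 3, Lk6 among them, 2 had 4 and 1 had 5.

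Long genes have more room for a summit, and the windows of the 9 genes ran from 5.2 kb at Thor to 53.1 kb at InR. Within windows under 10 kb, 1 of 3 of these genes (eIF4E1, not Thor or chico) had an IDR summit, against 18.1% of all genes in that class. Between 10 and 20 kb it was 2 of 4 (Akt and Lk6, not Tor or S6k), against 35.3%. Over 20 kb it was 2 of 2 (InR and foxo), against 48.2%. The windows add up to 166.8 kb and held 9.59 IDR summits per 100 kb, where the arms as a whole held 2.46 per 100 kb. At that average, 4.10 summits would have fallen into these windows in place of 16. The arms average takes in stretches far from any gene. An average over the windows of all genes was not computed, so the multiples below are of the arms average only. The excess was less steep in the long lists, at 53.4 pooled regions per 100 kb of these windows against 22.4 over the arms. Akt had 7.79 times the average number for its window, Lk6 6.96 times, eIF4E1 5.94 times, InR 5.36 times and foxo 3.48 times. The place of Akt rests on the peak inside Mhcl: with windows of 1 kb Akt had 1 summit and 4.82 times the average, against 8.40 times for eIF4E1, 7.86 times for Lk6, 5.57 times for InR and 3.69 times for foxo.

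**Figure D1:**
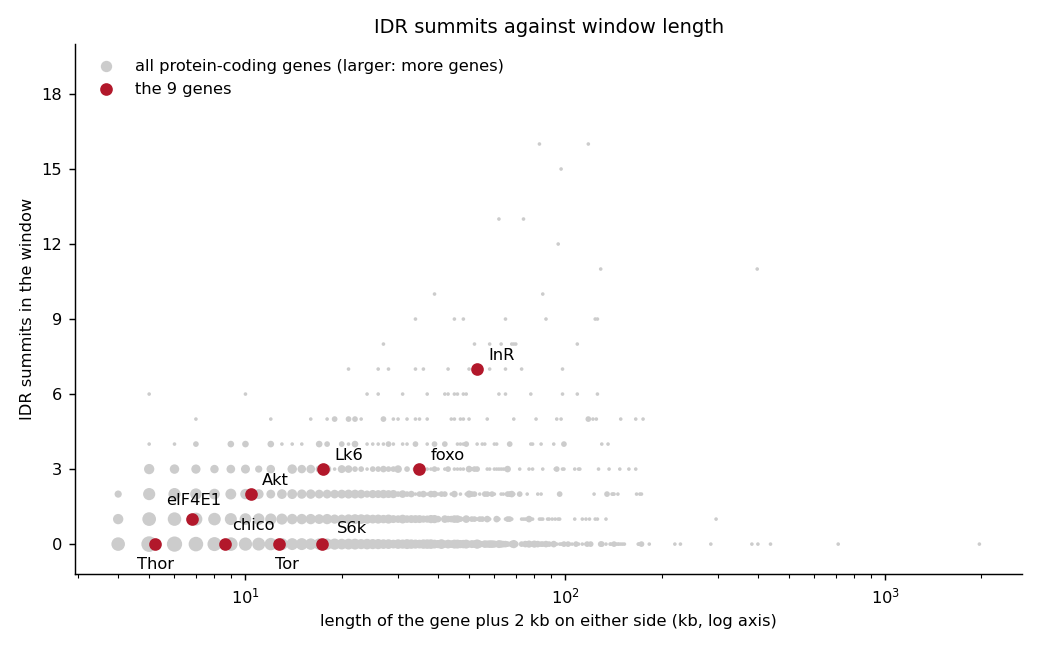
Number of IDR summits (vertical axis) against the length of the gene plus 2 kb on either side (horizontal axis, kb, log scale), with the 9 genes in red and all 13945 protein-coding genes in grey, grouped by length rounded to 1 kb, larger dots standing for more genes. InR lies highest of the 9, with 7 summits in 53.1 kb, while Thor, chico, Tor and S6k lie on the line of 0 summits.

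Most of the peaks had their summit in an intron. Of the 16 summits, 12 were in introns of the listed gene and 4 were outside it. Counted over any gene, 13 of 16 (81.2%) were intronic, the stronger Akt peak being inside Mhcl, against 50.7% of all IDR summits on arms. The 2 kb rule leaves out summits far from a gene, which the share of all includes. InR and foxo, genes of 49.1 and 31.0 kb, held 7 and 3 of the 16. The shares of summits and of regions in what follows are likewise over unlike sets. The summit base was in a coding or untranslated exon in 0 of 16, against 9.9% of all, though the 101 bp around the summit held 50 bases of untranslated exon at eIF4E1 and 13 at the foxo RG peak, and replicate 4's own summit at eIF4E1 was in the 5′ untranslated region. No more than 500 bp from the closest TSS of a coding gene were 5 of 16 (31.2%), all 5 upstream, against 43.7% of all, and within 1 kb 11 of 16 (68.8%), against 54% of all. Of those 11, 8 were upstream (72.7%), against 74.3% of such summits in all. All 5 genes with a peak had one whose summit was at most 1 kb from one of their own TSSs, so the count was again 5 of 9 (55.6%), against 14.4% of all protein-coding genes. That count was 2 of 9 in the strongest regions of replicate 3 alone, against 16.1% of all genes. It was 5 of 9 in those of replicate 4, against 14.3%, and 2 of 9 in the strongest 1656 IDR peaks, against 7.83%. Of the 73 weaker pooled regions at these genes, 44 (60.3%) had their summit in an intron of any gene, against 53.9% of the 26683 weaker pooled regions on arms.

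**Figure D2:**
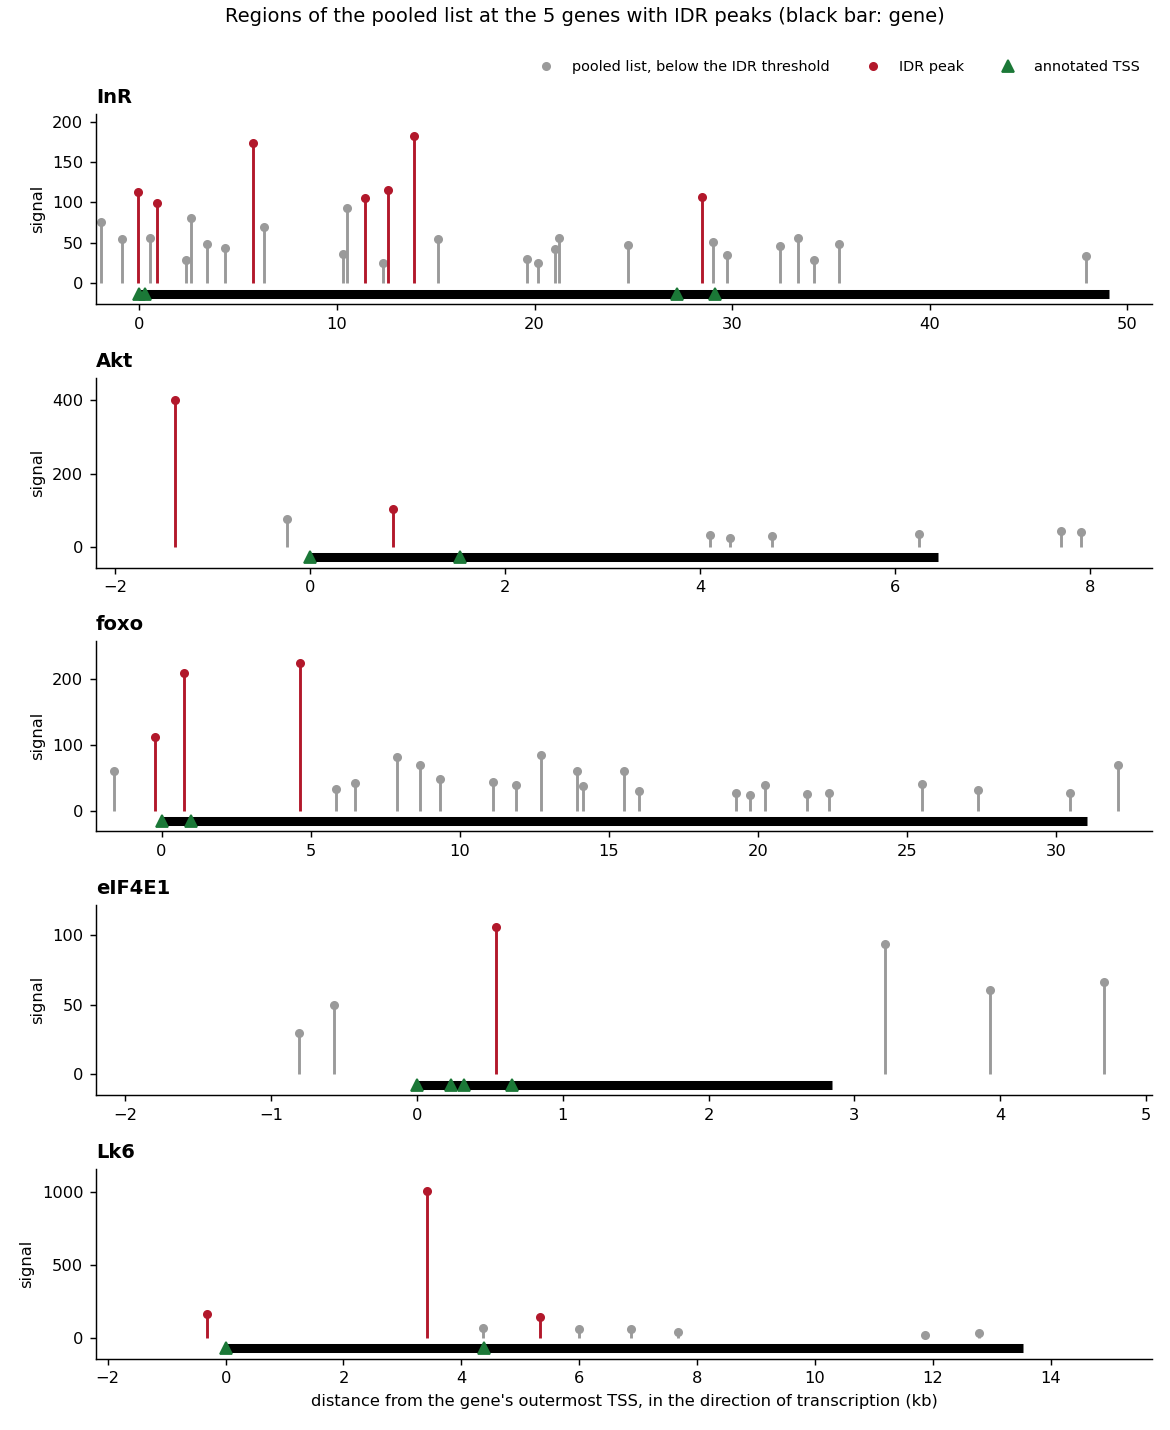
Signal of every pooled region (vertical axis, the authors' value, a separate scale for each gene) at InR, Akt, foxo, eIF4E1 and Lk6 against distance from the gene's outermost TSS in the direction of transcription (horizontal axis, kb); red stems are IDR peaks, grey stems weaker regions, the black bar is the gene and green triangles are TSSs. At Lk6 1 peak of signal 1010 stands over all others, while the 7 red stems of InR, between 99.8 and 182, are spread from its outermost TSS far into the gene.

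InR, the receptor, is a gene of 49.1 kb on the minus strand of chromosome 3R (chr3R:21570248-21619321) with 4 TSSs: those of isoforms RB and RA lie 285 bp apart at its start, and those of RC and RD lie 27200 and 29130 bp inside. Its 7 IDR peaks were of moderate strength. The strongest (chr3R:21605243-21605632, rank 859, signal 182) lay in an intron between both pairs of TSSs, 13317 bp upstream of RC. In replicate 4 it was a strong peak, with a signal of 169 (rank 321) and the summit 3 bp away. The replicate 3 region that overlapped it was weak, with a signal of 23.9 (rank 12371). The summit of that region was 185 bp away, so it may be another site. Towards the start of the gene, also in introns, further peaks followed after 1320 and then 1128 bp. The nearer of these (signal 115, rank 2313, 12278 bp downstream of RA) had no region at all in replicate 3 and a signal of 80.5 in replicate 4. The farther one (signal 106, rank 2750, 11150 bp downstream of RA) had signals of 45.2 and 61.9 in replicates 3 and 4 and ranked alike in both, at 3454 and 3039.

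Closer to the start of InR, the peak 5460 bp downstream of RA (chr3R:21613381-21613770, signal 174, pooled rank 943) was the only InR peak among the 3312 strongest regions of both replicates, with signals of 65.4 in replicate 3 (rank 1523) and 104 in replicate 4 (rank 988). Its nearest TSS of any kind was that of the non-coding RNA gene lncRNA:CR44034, 2164 bp away. That TSS was also nearest to the peaks 13317 bp upstream of RC and 12278 and 11150 bp downstream of RA. The nearest coding TSS of all these was InR's own. The promoter peak (chr3R:21619193-21619582, signal 113) had its summit 67 bp upstream of the RB TSS, outside the gene. It had a signal of 30.2 in replicate 3 (rank 7953) and 105 in replicate 4 (rank 971). An intron held a peak 589 bp downstream of RA (signal 99.8). It had signals of 39.2 in replicate 3, where the summit was 154 bp away, and 81.2 in replicate 4. Both promoter-proximal peaks were thus among replicate 4's strongest regions and not among replicate 3's. The internal promoter of RD had its own peak 659 bp upstream (chr3R:21590655-21591044, signal 107), with signals of 37.9 in replicate 3 (rank 5022) and 70.5 in replicate 4 (rank 2356). The pooled list held 31 regions in all at InR, with a median signal of 54.4, and the strongest below the IDR threshold had a signal of 93.5 (rank 3450).

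Chico, the adaptor that links the receptor to the lipid kinase, is a gene of 4.6 kb (chr2L:10242512-10247078, minus strand, 1 TSS) with no IDR peak. The pooled list held 4 weaker regions there. The strongest, in an intron 502 bp downstream of the TSS, had a pooled signal of 53.9 (rank 9017), 36.5 in replicate 3 (rank 5408) and 21.5 in replicate 4 (rank 16899). A region 348 bp upstream of the TSS had a pooled signal of 45.9 (rank 11662). The nearest IDR summit was 8827 bp beyond the gene, 14 bp from the TSS of CG5676.

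Akt, the kinase at the centre of the insulin branch, is a gene of 6.4 kb on the plus strand (chr3R:16099228-16105670) with TSSs for most isoforms at its start and for RD 1532 bp inside. Its stronger peak (chr3R:16097718-16097937, signal 401, rank 140) was the second highest at any of the 9 genes and ranked high in both replicates, with signals of 189 in replicate 3 (rank 111) and 209 in replicate 4 (rank 197). The summit lay 1389 bp upstream of Akt, but it was inside an intron of the neighbouring gene Mhcl, which encodes a myosin heavy chain-like protein, and only 922 bp from the Mhcl TSS. The lists do not say which gene, if either, the peak serves. The other peak (chr3R:16099877-16100266, signal 104, rank 2831) lay in an Akt intron 688 bp upstream of the RD TSS, with 35.1 in replicate 3 (rank 5877) and 63.5 in replicate 4 (rank 2885). Its window, shown above, is the one with CATTTG at 2 places. At the main Akt TSS itself, a region 238 bp upstream stayed below the threshold (pooled signal 76.7, rank 4936). With the gene body alone or a window of 1 kb, the strongest Akt signal was therefore 104 in place of 401.

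Foxo, the transcription factor that Akt restrains, is a gene of 31.0 kb on the plus strand (chr3R:14056945-14087978) with 1 TSS for 4 isoforms and another, of RG, 974 bp downstream. Each of these TSSs had a peak at the same distance, 216 bp upstream. The one at the first TSS (chr3R:14056534-14056923, signal 112) had signals of 45.2 in replicate 3 (rank 3458) and 73.8 in replicate 4 (rank 2137). The one at RG (chr3R:14057508-14057897, signal 210.4, rank 641) was a foxo peak strong in both, with 110.1 in replicate 3 (rank 457) and 95.7 in replicate 4 (rank 1202). The third peak, 3686 bp downstream of RG in an intron (chr3R:14061410-14061799), had the highest pooled signal of the 3 at 224 (rank 561), and the replicates did not share it in strength: it had 24.3 in replicate 3 (rank 12009) and 193 in replicate 4 (rank 236). Ranked by replicate 3 alone, the RG promoter peak led at foxo; ranked by replicate 4 alone, the intronic one did. Just outside the 2 kb limit, 3364 bp upstream of foxo and with foxo as its nearest coding TSS, lay a stronger IDR peak (signal 281, rank 341). It was the only IDR summit that a 5 kb window added to any of the 9 genes.

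Tor (mTor in the annotation; chr2L:13004480-13013197, 8.7 kb), the kinase of the amino acid branch, had no region in any of the 4 lists. Its nearest IDR summit was 29177 bp away, 99 bp from the TSS of Vha68-2. S6k (chr3L:5797549-5810931, 13.4 kb), the kinase that TOR activates, had none in the IDR, pooled or replicate 3 lists and 1 weak intronic region in replicate 4 (signal 19.2, rank 19781). These lists reach down to signals of 23.9 in the pooled list, 13.9 in replicate 3 and 14.1 in replicate 4. A listed region need not be binding, since the pooled list takes in background. The authors' −log10 q-value, lower for less certain regions, was 0.27 for the S6k region and 0.77 for the strongest pooled chico region. For the Thor pooled regions described below it was 1.47 for the strongest and 0.79 at the promoter. The lowest in the IDR list was 1.77. In the pooled list, 7 of the 9 genes (77.8%) had a region, against 60.3% of all genes, and Tor and S6k were the exceptions.

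Thor, the 4E-BP that both branches control, is a short gene of 1.2 kb (chr2L:3478434-3479612, plus strand) with TSSs 88 bp apart and no IDR peak. It had 5 pooled regions. The strongest lay beyond its 3′ end, 2227 bp downstream of a TSS, with a pooled signal of 84.2 (rank 4143), 36.0 in replicate 3 (rank 5581) and 45.3 in replicate 4 (rank 5446). At the promoter, a region 162 bp upstream had a pooled signal of 54.7 (rank 8788), with 35.2 in replicate 3 (rank 5834) and 21.0 in replicate 4 (rank 17410). Both were below the pooled signal of 95.7 that the weakest IDR peak had.

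The gene eIF4E1, for the cap-binding protein that Thor sequesters, spans 2.8 kb on the minus strand (chr3L:9399618-9402460) with 4 TSSs. Its single IDR peak (chr3L:9401721-9402110, signal 105, rank 2756) lay 111 bp upstream of the TSS of RF, in an intron of longer isoforms. In replicate 4 it had a signal of 84.6 (rank 1594). The strongest region it met in replicate 3 had 21.6 (rank 14929), with a summit 256 bp away on the other side of the RF TSS. Another replicate 3 region, with its summit 13 bp from that of the peak, had 16.7 (rank 23077). Replicate 3's own strongest region within 2 kb of eIF4E1 was another, with a signal of 54.4, lying past the 3′ end and 23 bp from the TSS of CG4080.

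Lk6, the kinase of eIF4E1, held the strongest peak of all 9 genes. The gene (chr3R:11750931-11764457, 13.5 kb, minus strand) starts at the TSS of RA, and RB starts 4378 bp inside. The peak (chr3R:11760908-11761183, signal 1010, rank 19 of the pooled list) lay in an intron of RA, 962 bp upstream of the RB TSS. It had signals of 396 in replicate 3 and 619 in replicate 4, and rank 18 in each. Its CATATG box, shown above, was the only one of that kind among the 16 windows. The 2 other Lk6 peaks were much weaker. The one 318 bp upstream of RA (chr3R:11764580-11764969, signal 168, rank 1031) had 60.4 in replicate 3 (rank 1830) and 118 in replicate 4 (rank 760), and the one 959 bp downstream of RB (chr3R:11758925-11759314, rank 1442) had 48.8 (rank 2910) and 91.1 (rank 1347) in those replicates. All 3 Lk6 peaks were among the 3312 strongest regions of both replicates. Next to the RB TSS, 17 bp upstream, a region of signal 72.8 stayed below the threshold (rank 5403).

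**Figure D3:**
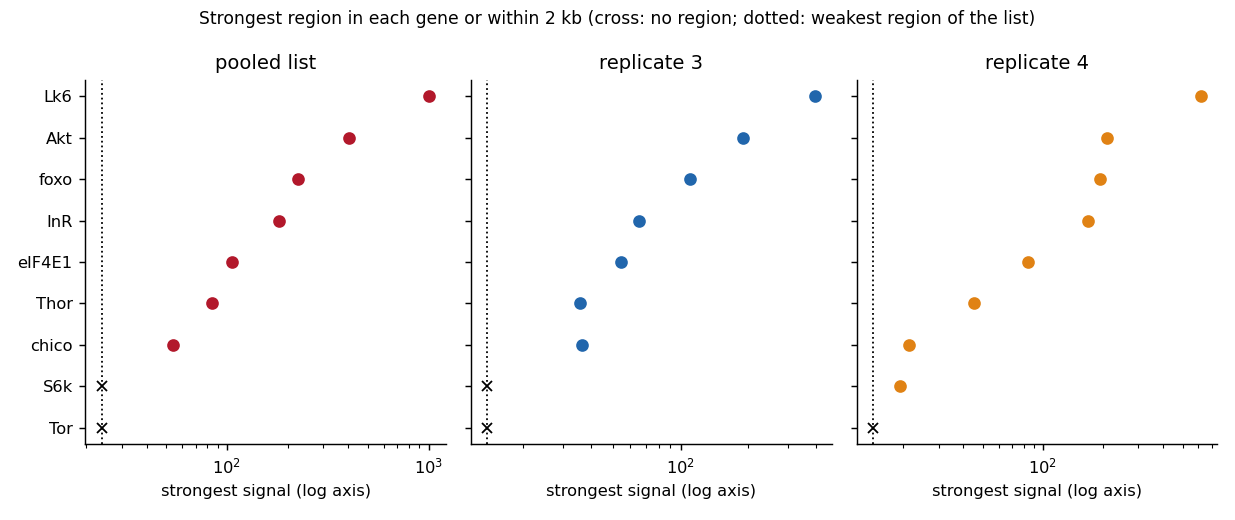
Strongest signal at each of the 9 genes (horizontal axes, log scale, the authors' value) in the pooled list, replicate 3 and replicate 4; a cross marks a gene with no region and the dotted line the weakest region of that list. Lk6, Akt, foxo, InR and eIF4E1 follow each other in the same order in all 3 panels, and Tor has a cross in each.

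The order of the genes by their strongest region was the same at the top of every list. In replicate 3 the strongest signals were 396 for Lk6, 189 for Akt, 110.1 for foxo, 65.4 for InR and 54.4 for eIF4E1, followed by 36.5 for chico and 36.0 for Thor. In replicate 4 they were 619 for Lk6, 209 for Akt, 193 for foxo, 169 for InR and 84.6 for eIF4E1, followed by 45.3 for Thor, 21.5 for chico and 19.2 for S6k. The gap below Lk6 and the place of Akt were thus common to both replicates, while chico and Thor swapped places and differed little in replicate 3. With only the 3312 strongest regions of each replicate, the same 5 genes had a summit in the gene or within 2 kb in both, though not always at the same site. In replicate 3 eIF4E1 counted only through the region by CG4080, and the strongest regions of foxo and InR were at different sites in the replicates. The count was 5 of 9 against 25.4% of all genes in replicate 3 and 23.2% in replicate 4.

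The replicates differed more in the single peaks. Of the 16 IDR peaks, 15 (93.8%) met a region of both full replicate lists, against 96.6% of the 3292 IDR peaks on arms. The full lists reach down to −log10 q-values of 0.20 in replicate 3 and 0.12 in replicate 4, so the region met can be weak. Among the 3312 strongest regions of both replicates were 6 of the 16 (37.5%), against 58.5% of all IDR peaks. The split was one-sided. All 16 peaks met one of replicate 4's 3312 strongest regions, against 79.7% of all IDR peaks, and 6 of 16 met one of replicate 3's, against 75.3%. Of the 15 peaks seen in both, 12 ranked better in replicate 4, or 80%, against 47.9% of the 3181 such peaks on arms. The strongest Lk6 peak had rank 18 in each, and only the stronger Akt peak and the foxo RG promoter peak ranked better in replicate 3. Of the strongest regions at these genes, 6 of 12 (50%) in replicate 3 met no IDR peak, against 25.6% of all its strongest regions on arms, and 1 of 18 (5.56%) in replicate 4, against 20.3%. In pooled strength the 16 peaks had a median signal of 130, against 135 over all IDR peaks on arms, and a median pooled rank of 1877.5, against 1664.5.

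**Figure D4:**
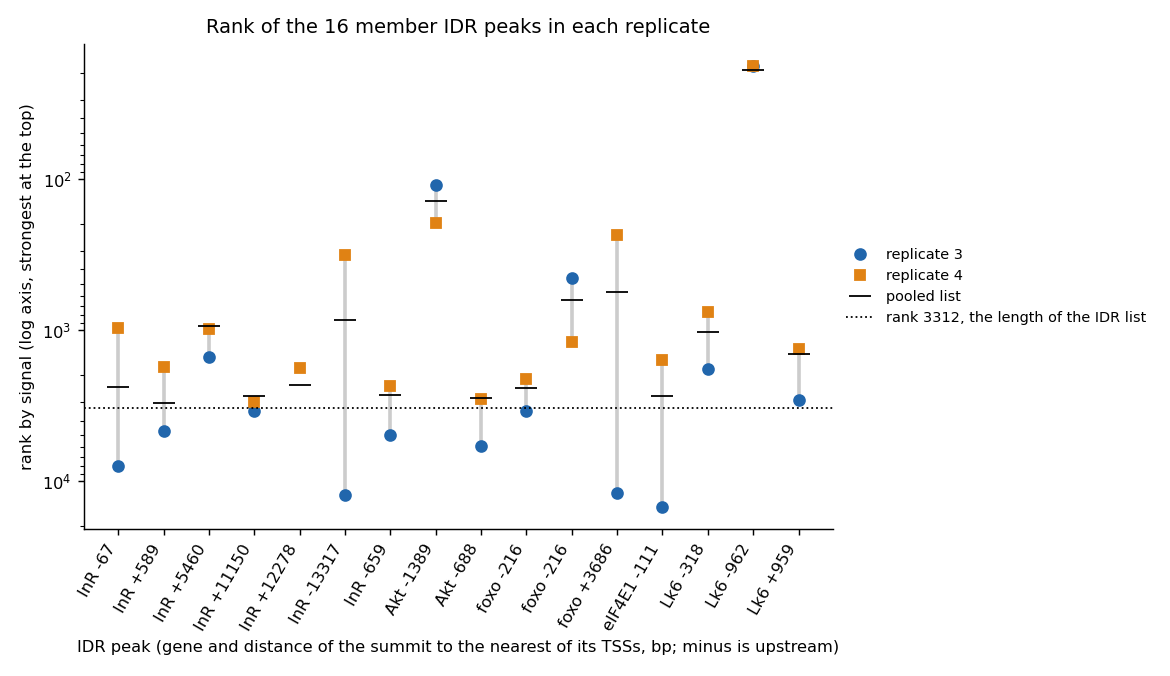
Rank by signal (vertical axis, log scale, strongest at the top) of the 16 IDR peaks in replicate 3 (blue circles), replicate 4 (orange squares) and the pooled list (black bars), ordered by gene and position; the dotted line is rank 3312. All 16 squares lie above the line and 10 peaks have their circle below it or none, the widest gaps being those of the foxo peak 3686 bp downstream of RG and the InR peak 13317 bp upstream of RC.

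The larger of both ranks was a median 2.16 times the smaller over the 15 peaks, against 1.83 times over all 3181. It was 50.9 times at the intronic foxo peak and 38.5 times at the InR peak upstream of RC, whose replicate 3 summit was 185 bp away. At eIF4E1 it was 9.37 times (14.5 times with the replicate 3 region whose summit is nearest), and at the InR promoter 8.19 times. Base composition is given here beside these differences. GC content within 50 bp of the summit had a median of 38.1% over the 16 peaks (range 26.7% to 54.5%), against 33.7% over all IDR peaks, and 6 of the 16 (37.5%) had at least 40% GC, against 25.4% of all. Across the genome, peaks with more GC ranked lower in replicate 3 than in replicate 4. The median log2 ratio of the rank in replicate 3 to that in replicate 4 was -0.54 in peaks under 25% GC, 0.55 between 45% and 50% and 1.41 at 50% or more. The InR promoter, the InR peak upstream of RC and the eIF4E1 peak had 46.5%, 49.5% and 46.5% GC. The intronic foxo peak had 32.7% GC, where the median log2 ratio was -0.17, but 78.2% pyrimidines, and in the 23 peaks with 75% or more of 1 base class that were seen in both replicates the median was 1.79. Other peaks did not follow their class. The foxo RG peak, with 67.3% of its bases in the commoner class, pyrimidine or purine, had a log2 ratio of -1.40. The median for such peaks was 0.43. The Lk6 peaks with 30.7% and 38.6% GC had 1.27 and 1.11 where the medians were -0.17 and -0.06. The part of composition in the replicate difference at these genes was not tested, and it was looked at after the ranks were known.

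**Figure D5:**
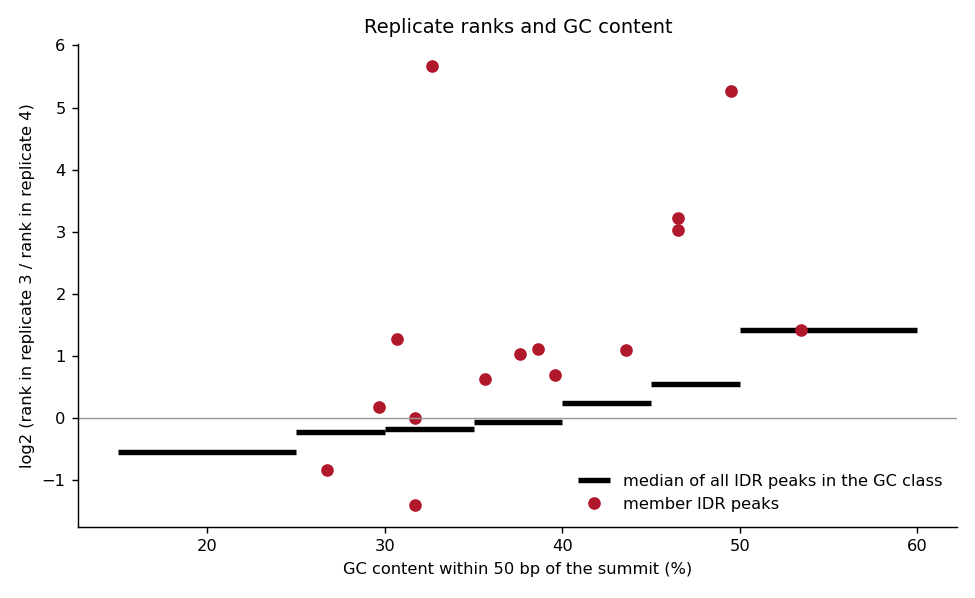
Log2 ratio of a peak's rank in replicate 3 to its rank in replicate 4 (vertical axis, above 0 where replicate 4 ranked it better) against GC content within 50 bp of the summit (horizontal axis, %); red points are the 15 IDR peaks at the 9 genes seen in both replicates, black bars the median of all IDR peaks in each GC class. The bars climb with GC, and 12 of the 15 points lie above 0.

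E-boxes were counted first, as Sage is a bHLH factor. Of the 16 windows of 101 bp, 5 held CANNTG on either strand (31.2%), against 35.4% of all IDR windows and 35.8% of all pooled windows. The 5 were the Lk6 peak with CATATG, the second Akt peak with CATTTG, the Lk6 peak downstream of RB with CATTTG, the foxo promoter with CAAGTG and the InR peak 12278 bp downstream of RA with CACATG. The box CATATG was in 3.95% of all IDR windows. The InR box reads CATGTG on the other strand, a motif found in 4.13% of all. CAGCTG was in 0 of the 16 windows (4.8% of all IDR windows), as were the boxes CACGTG (0.759% of all) and CACCTG (1.61% of all). GAGAG, the core that the GAGA factor binds, was in 5 of 16 windows (31.2%), against 15.2% of all IDR windows: those of the foxo promoters (2), eIF4E1, InR 589 bp downstream of RA and InR 659 bp upstream of RD. CGATA was in 2 windows (16.2% of all) and AAATCA in 2, at Lk6 and Akt, the strongest peaks (12.8% of all). GTAAACA, a forkhead core to which FoxO proteins also bind, was in 1, at Akt, where on the opposite strand it overlaps the first CATTTG (3.07% of all). These 10 motifs were searched on both strands, the specific E-boxes are also counted under CANNTG, and a match of letters is not a site.

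Beyond the 9 genes, 60 other genes of the insulin and TOR pathways and of cap binding were taken from lists, all 60 of which were found. Of these, 22 (36.7%) had an IDR summit in the gene or within 2 kb, against the 22.9% of all genes. The median window was 8.4 kb. By list it was 9 of 22 insulin genes (40.9%), 11 of 29 TOR genes (37.9%) and 2 of 9 cap-binding genes (22.2%). In the strongest regions of replicate 3 the count was 20 (33.3%), against 25.4% of all genes, and in those of replicate 4 it was 23 (38.3%), against 23.2%. A further list, of 8 known FoxO target genes, overlaps the 9 genes and the other lists; 3 of its 8 members (37.5%) had a peak, namely InR, the growth regulator Myc (strongest signal 142) and the lipase gene bmm (107).

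At the top of the pathway, none of the genes for insulin-like peptides, Ilp1 to Ilp8, had an IDR peak. Their windows were short, at 4.5 to 7.2 kb, and only 18.1% of all genes with windows under 10 kb had one. ImpL2, which encodes a secreted protein that binds insulin-like peptides, had one of signal 268 (rank 383), 1080 bp upstream of its nearest TSS and as far from that of CG46460. Between receptor and Akt, Pi3K21B, the adaptor subunit of the lipid kinase, had a promoter peak of 173 (83 bp upstream), and step, a cytohesin that acts in insulin signalling, had one of 151 (72 bp upstream). The catalytic subunit Pi3K92E had none. Sgg, the fly GSK3 kinase, had 3 summits, the strongest of 224 and 189 bp upstream of a TSS.

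In the TOR branch the strongest peak belonged to REPTOR, a transcription factor active when TOR is off. It had 5 summits, the strongest (chr3R:24572515-24572787, signal 525, rank 72) 190 bp upstream of a TSS, with signals of 220 in replicate 3 (rank 68) and 306 in replicate 4 (rank 69). Its partner REPTOR-BP had 2, the stronger of 148. Sesn, a stress-induced restraint on TOR, had a peak of 377 located 217 bp upstream of a TSS and as far from that of CG46429. The AMPK subunits alc and SNF4Agamma had peaks of 260 (outside alc, 963 bp upstream of its TSS and 186 bp from that of CG44286) and 151, with 6 summits over the 77.5 kb window of SNF4Agamma, whereas AMPKalpha had none. The peak counted for mio, of the amino acid sensing complex GATOR, had a signal of 403 but was 4521 bp from the mio TSS and 278 bp from that of papi. The core partners raptor, rictor, Lst8 and Sin1 and the upstream regulators Tsc1, gig, Rheb, RagA-B and RagC-D had no IDR peak, as Tor had none. PRAS40, a component of the TOR complex, was the exception among its partners, with 3 summits of up to 123. Having no IDR peak is common, as 22.9% of all genes had one, and 18.1% of those with windows under 10 kb. Nprl3, chrb and RpS6 of the same list also had peaks.

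Among cap-binding genes, eIF4EHP, a cap-binding protein that represses translation, had a peak of 352 (rank 191; 238 bp upstream of a TSS and 138 bp from that of CG18428), stronger than the 105 of eIF4E1. It ranked 89 in replicate 3 and 427 in replicate 4. The eIF4A helicase gene had a peak of 123, which was 132 bp from the TSS of chic and had no region in replicate 3. The eIF4E paralogs eIF4E3 to eIF4E7, eIF4G1 and 4E-T had none. REPTOR-BP, PRAS40, eIF4A, Myc and bmm are not among the 10 listed genes with the strongest peaks and were named after their values were seen.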

How the data were processed

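ChIP-seq of Sage-GFP in whole wandering larvae was deposited as peak lists for biological replicates 3 and 4, for both pooled, and for the regions past the submitters' IDR threshold. Column 7 of each list is the signal the authors' peak caller gave a region, computed against a control per the deposited text. Column 9 is the authors' −log10 q-value, used only to describe the lists and a few weak regions. The IDR regions reach a −log10 q of 2.11, which 1879 of them share, so they were ranked by signal. No source used here gives the aligner, the peak caller or a version of either, and the control library and the dm3 lists were not used here. Whether the replicates came from separate cultures is not stated. Median deposited signals were 136 in the IDR list, 39.0 in the pooled list, 21.6 in replicate 3 and 23.3 in replicate 4.

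The analysis used Python 3.11.15 with pandas 2.3.3, numpy 2.4.6 and matplotlib 3.10.9, genes of Ensembl release 115 and the RefSeq Release 6 genome. Coordinates are dm6, counted from 1. Regions of 2 lists met when they overlapped by at least 1 bp. The 9 genes, the pathway lists and the motifs were chosen with earlier results of these data known. All 9 genes were named, and of the other pathway genes the 10 with the strongest IDR peaks. The symbol Tor was matched to mTor through the RefSeq gene table. Counting was tested on simulated summits. Alternatives changed the window, the threshold, the assignment, the overlap and the replicate used.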

Additional observations from a re-analysis of the deposited data

How the results depend on the processing

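The count of 5 of 9 genes with an IDR summit (22.9% of all genes) stayed at 5 with gene bodies alone (8.61% of all genes), with windows of 1 kb (19.3%) and 5 kb (32.4%), with a summit given only to the nearest coding TSS (15%), with any overlap, and in replicate 3 (25.4%) or 4 (23.2%) alone. In the strongest 1656 IDR peaks it was 4 (13.5%), without eIF4E1, and the summits numbered 8 in place of 16, the pathway genes 13 of 60 in place of 22 (21.7%, against 13.5% of all genes), and the genes with a summit within 1 kb of a TSS 2 in place of 5 (7.83%). With gene bodies alone, 13 of 60 pathway genes had a summit, against 8.61% of all genes. Leaving out 1 replicate gave 5 genes in each case, 12 to 18 summits and 20 to 23 pathway genes. Genes with a summit within 1 kb of a TSS numbered 2 without replicate 4, against 16.1% of all genes. Without replicate 3 they numbered 5, against 14.3%. Peaks met in both replicates were 6 in place of 15 among their strongest regions. Windows of 201 bp held an E-box in 11 of 16 cases in place of 5, against 60.8% of all. The strongest Akt signal was 104 with the gene body or 1 kb in place of 401, and that of foxo was 281 with 5 kb in place of 224. Causes of these changes beyond the smaller or larger windows and lists were not tested. Of the alternatives, 36 left their result within 1.5 times or unchanged and 10 moved it. For chico, Tor, S6k and Thor no alternative gave an IDR signal. No paired analysis was possible because there is only 1 group. Read depth is unknown and the pooled list takes in background, so no limit of detection can be given.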

Other observations

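The regions at the 9 genes that were among the 3312 strongest of 1 replicate and met no IDR peak, 6 of 12 in replicate 3 and 1 of 18 in replicate 4 (against 25.6% and 20.3% of all strongest regions of these replicates), were as follows. In replicate 3 an intronic InR region 8961 bp downstream of RD (chr3R:21581040-21581419, signal 51.7, rank 2581) met no region of replicate 4 or of the pooled list. Other InR regions of replicate 3 lay 12089 bp upstream of RC (47.8, rank 3057) and 4041 bp downstream of RA (46.7, rank 3225), neither with a region in replicate 4, and 10041 bp downstream of RA (51.3, rank 2626), which had rank 3802 in replicate 4. Beyond the 3′ end of foxo, a region of replicate 3 (60.1, rank 1854), 521 bp from the TSS of Npc2b, had rank 22805 in replicate 4. The region past the 3′ end of eIF4E1, by CG4080 (54.4, rank 2318), had rank 4119 in replicate 4. In replicate 4 the region was at InR, 2324 bp downstream of RA (67.1, rank 2603), and it had rank 24348 in replicate 3.

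Over the 3181 IDR peaks on arms seen in both replicates, GC content within 50 bp of the summit and the log2 ratio of the rank in replicate 3 to that in replicate 4 had a Spearman coefficient of 0.275. For the share of the commoner base class, pyrimidine or purine, it was 0.0941. The points share 2 libraries and are not independent. Of the 197 IDR peaks with at least 50% GC, 25 had no region in replicate 3 and 1 had none in replicate 4; the InR peak 12278 bp downstream of RA, with 54.5% GC, is one of the 25. In the class of 75% or more pyrimidines or purines, replicate 4 ranked the peak better in 95.7% of 23 cases.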
